A study of Mus musculus with 3 samples.

Results

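The unfolded protein response was followed through 6 genes in B cells and plasma cells of the mouse: Ern1, Atf6 and Eif2ak3, which encode the 3 stress sensors of the endoplasmic reticulum (ER), Xbp1, which encodes the transcription factor switched on by IRE1, and Sel1l and Derl3, which encode parts of the machinery for ER-associated degradation (ERAD). They were chosen by gene symbol from the probe annotation, by a rule that reads no measured value, though with earlier results of these data known, and each had 1 probe, so 6 of the 23473 probes and 6 of the 16390 named genes of the array are described. The probe of Sel1l is listed under the older symbol Sel1h. All 3 populations came from the IL-10 Venus reporter mouse, whose Venus fluorescence reports Il10 expression. From the spleen, B220+ cells and Venus+ CD138hi cells were sorted by flow cytometry, and from the bone marrow Venus+ CD138hi cells, all freshly isolated and with no treatment named. B220 marks B cells and CD138 (syndecan-1) marks plasma cells. Neither the age nor the number of mice is stated in the labels. RNA of each population was read on 1 single-colour array, so no difference has a replicate check, none was tested, and array and population cannot be told apart. In sorted bulk samples such as these, fewer cells of a type and less RNA per cell cannot be told apart.

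As background, the ER folds secreted and membrane proteins, and unfolded protein in its lumen activates the 3 sensors. IRE1 (Ern1) cuts Xbp1 mRNA so that, once joined again, it encodes the active transcription factor XBP1. ATF6 travels to the Golgi, where site-1 and site-2 proteases release its transcription factor domain, and PERK (Eif2ak3) phosphorylates the translation factor eIF2alpha, which slows protein synthesis and favours translation of ATF4. XBP1 is required for the secretory expansion of plasma cells. SEL1L is the partner of the ubiquitin ligase HRD1, and DERL3 is a derlin, a membrane protein of the same degradation route.

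The DNA before the start of each gene is shown because ATF6 and XBP1 act through short sequence elements there, so that the letters can be set beside the values that follow. Windows of 250 bases before the start were taken from RefSeq (GRCm38.p6) for 5 of the 6 genes, not for Atf6. Capitals mark every match, on either strand, to the CCAAT box (CCAAT), to the ACGTG core (ACGTG) or to the ER stress response element, ERSE (CCAAT and CCACG with 9 bases of any kind between them). The windows, 5′ to 3′ in the direction of the gene, lie at chr11:5520391-5520640 on the + strand for Xbp1, chr11:106487797-106488046 on the - strand for Ern1, chr6:70844265-70844514 on the + strand for Eif2ak3, chr12:91849158-91849407 on the - strand for Sel1l and chr10:75893148-75893397 on the + strand for Derl3.
Derl3: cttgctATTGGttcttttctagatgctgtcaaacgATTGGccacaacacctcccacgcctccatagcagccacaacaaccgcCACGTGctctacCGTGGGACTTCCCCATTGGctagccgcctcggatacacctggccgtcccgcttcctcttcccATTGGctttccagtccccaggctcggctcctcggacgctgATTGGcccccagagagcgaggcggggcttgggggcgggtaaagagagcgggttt
Sel1l: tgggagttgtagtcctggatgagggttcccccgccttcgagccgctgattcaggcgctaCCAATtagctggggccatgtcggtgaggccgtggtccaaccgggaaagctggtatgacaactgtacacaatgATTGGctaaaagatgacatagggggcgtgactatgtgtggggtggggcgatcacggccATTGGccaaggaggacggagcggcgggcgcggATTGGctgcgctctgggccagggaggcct
Eif2ak3: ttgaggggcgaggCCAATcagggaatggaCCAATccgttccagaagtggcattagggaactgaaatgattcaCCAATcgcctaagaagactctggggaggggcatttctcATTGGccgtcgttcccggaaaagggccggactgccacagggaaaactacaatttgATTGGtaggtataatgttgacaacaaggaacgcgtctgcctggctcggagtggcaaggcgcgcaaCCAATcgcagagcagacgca
Xbp1: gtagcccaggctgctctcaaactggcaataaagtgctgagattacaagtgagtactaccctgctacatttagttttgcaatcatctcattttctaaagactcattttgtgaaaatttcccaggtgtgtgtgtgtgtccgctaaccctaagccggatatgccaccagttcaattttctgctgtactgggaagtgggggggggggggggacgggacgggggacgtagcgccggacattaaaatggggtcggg
Ern1: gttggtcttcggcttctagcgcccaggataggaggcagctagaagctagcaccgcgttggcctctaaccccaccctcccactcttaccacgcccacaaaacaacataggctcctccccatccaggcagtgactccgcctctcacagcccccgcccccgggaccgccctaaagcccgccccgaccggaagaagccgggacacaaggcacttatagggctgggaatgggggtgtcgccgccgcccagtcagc

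Derl3 was the gene with an ERSE match, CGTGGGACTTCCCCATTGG on the reverse strand, from 156 to 138 bases before the start. Its window also held 5 CCAAT boxes, of which 1 is part of the ERSE match, and the ACGTG core on both strands. Sel1l had 4 CCAAT boxes, 1 on the forward and 3 on the reverse strand, and Eif2ak3 had 6, of which 4 were on the forward strand. The windows of Xbp1 and Ern1 held no match to these letters. None of the 5 windows matched ERSE-II (ATTGG, 1 base of any kind, then CCACG), the unfolded protein response element UPRE (TGACGTGG) or the amino acid response element (TGATGNAA). Of 32851 RefSeq windows of the same length, 37 (0.113%) held ERSE, 10 (0.0304%) ERSE-II, 185 (0.563%) UPRE and 1134 (3.45%) the amino acid response element, whereas 11120 (33.8%) held a CCAAT box and 5444 (16.6%) the ACGTG core. A match is a description of the letters and shows no binding.

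On the arrays, 16917 (72.1%), 17239 (73.4%) and 15857 (67.6%) of the probes were detected on the arrays of splenic B220+, splenic Venus+ and marrow Venus+ cells. Values are normalized signals, in which the blank level of the array is subtracted and the median of its detected probes is set to 25, and they are compared for the same probe across arrays only. Plasma cell markers followed the labels: 5, 6 and 6 of 6 were detected, with summed signals of 388, 3526 and 4917, and Tnfrsf17 was at least 1068-fold and 2185-fold higher in spleen and bone marrow Venus+ than in B220+ cells. Fkbp11 is both in this list and among the XBP1 targets below. Mature B cell markers ran the other way, with 8, 7 and 6 of 8 detected and sums of 28007, 10254 and 4237. Of the markers of other cells, the neutrophil list summed to 4993, 114 and 533 (8, 3 and 7 of 8 detected). Against B220+ cells, 1 of 3 was higher in the spleen (Ly6g, log2 ratio 1.36) and 2 lower, beside 15.7% and 16.5% over all genes. In the bone marrow 2 of 7 were higher, Mpo the most at 3.75, and 5 lower, beside 22.4% and 30.7%. The erythroid list summed to 340, 40 and 42.3 (4 of 5 on each array, Epor on none), and the T cell list to 36.8, 766 and 1112 (5, 7 and 6 of 7, with Cd3e and Cd3g detected in both Venus+ populations and not in B220+ cells). Cd247 alone gave 15.7, 637 and 1038 of the T cell sums, while Cd3d stood at 7.89, 39.3 and 24.5, Cd3g at 55.7 and 8.95 in the spleen and marrow Venus+ cells, and Thy1 was not detected in the marrow. The monocyte list summed to 1603, 10545 and 21884 (6, 4 and 5 of 7), of which Ly6c1 alone gave 1542, 10400 and 21606, while Cd68 stood at 33.0, 111 and 241, Mrc1 at 1.498, 9.83 and 7.13, and Cd14 was not detected on any array. Csf1r differed little from B220+ cells, with log2 ratios of 0.06 in the spleen and 0.19 in the bone marrow. Of this list, 2 genes in the spleen and 1 in the bone marrow comparison were detected in B220+ cells alone. Over all genes, 547 (spleen) and 1350 (bone marrow) were detected in B220+ cells alone, beside 11618 and 10813 detected on both arrays. The list for basophils, mast cells and eosinophils summed to 27.3, 4730 and 6266 (4 of 7 on each array), nearly all from Prg2 in the Venus+ populations, while Fcer1a and Epx were not detected. Its 3 genes detected on both arrays were at least 2-fold higher in each comparison with B220+ cells, beside 15.7% (spleen) and 22.4% (bone marrow) over all genes. The lowest log2 ratios were 1.30 for Mcpt8 in the spleen and 1.40 for Cpa3 in the bone marrow. In each comparison 1 gene was detected in Venus+ cells alone and 1 in B220+ cells alone. Over all genes, 803 (spleen) and 711 (bone marrow) were detected in Venus+ cells alone, counts that also stand beside Cd3e and Cd3g above. NK cell, dendritic cell and stromal lists each summed to at most 251. The part of these cells in the differences below was not tested.

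Xbp1, the gene of the IRE1-activated transcription factor, stood at a normalized signal of 354 in B220+ cells, against 7174 in the Venus+ cells of the spleen and 8402 in those of the marrow. Both Venus+ populations were thus far above the B220+ array and close to each other. The log2 ratio over B220+ cells was 4.34 ± 0.14 in the spleen (20.2-fold) and 4.57 ± 0.13 in the bone marrow (23.7-fold). The error is a spot error, from the spread of blank spots and of positive control spots within the arrays, and leaves out the spread between mice or sorts. Of 11618 genes detected on both spleen arrays, 83 had a higher ratio than Xbp1. The part of the transcript that the probe reads is not stated, so spliced and unspliced Xbp1 mRNA are not separated.

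Ern1, the gene of the IRE1 sensor that cuts Xbp1 mRNA, was at the edge of detection. Its signal was -0.0114 in B220+ cells, against 4.15 in the Venus+ cells of the spleen and 1.57 in those of the marrow, and the spleen Venus+ array was the 1 array on which it passed the limit. Of 2736 blank spots, 1303 (47.6%) were at or above the Ern1 spot on the B220+ array, 1 (0.0365%) on the spleen Venus+ array and 434 (15.9%) on the bone marrow array. The signal of spleen Venus+ cells was at least 3.09-fold that of B220+ cells, a lower bound against the lowest detected signal of the B220+ array, and 803 of the 12968 genes detected on either array (6.19%) were likewise detected in spleen Venus+ cells alone. Against the bone marrow, spleen Venus+ cells were at least 1.76-fold higher, and 1068 of 12593 genes (8.48%) were detected in the spleen alone of these Venus+ arrays. A difference between B220+ and bone marrow cells was not measurable for this probe. With a filter asking for a signal 2 times the limit the spleen bound fell to 0.63 on the log2 scale, with normexp (a model-based background correction with an added offset, which draws ratios of dim probes towards 0) on the blank level to 0.067, and with normexp on the local background there was no bound above 1-fold.

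Atf6, the gene of the sensor that is itself cleaved into a transcription factor, had signals of 27.1 in B220+ cells, against 67.3 in the Venus+ cells of the spleen and 44.4 in those of the marrow. The spleen Venus+ array was the highest and the B220+ array the lowest. The log2 ratio over B220+ cells was 1.31 ± 0.14 in the spleen (2.48-fold) and 0.71 ± 0.14 in the bone marrow (1.64-fold), so that 2-fold was passed in the spleen comparison. Among all genes, 1266 of 11618 had a higher ratio in the spleen. The spleen value fell below 2-fold with both normexp backgrounds, to 0.56 with the local background and 0.72 with the blank level, and the bone marrow value reached 1.002 with scaling to probes detected on all 3 arrays and 1.01 with a limit from spots without a probe.

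Eif2ak3, the gene of the PERK kinase, went the other way. Its signal was 494 in B220+ cells, against 241 in the Venus+ cells of the spleen and 160 in those of the marrow, highest in the B220+ array and lowest in the bone marrow. The log2 ratio was -1.04 ± 0.14 in the spleen (2.05-fold lower) and -1.63 ± 0.13 in the bone marrow (3.09-fold lower). A lower ratio than that of Eif2ak3 was found for 1819 of 11618 genes (15.7%) in the spleen comparison. The spleen value lay near the 2-fold limit and was -0.68 with normexp on the blank level, -0.68 when the limit was set by spots that carry no probe and -0.74 after quantile normalization, and the bone marrow value was -0.98 with normexp on the blank level.

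Sel1l, the scaffold of the HRD1 ligase, was dim on the control array: its signal was 9.88 in B220+ cells, against 276 in the Venus+ cells of the spleen and 406 in those of the marrow. The log2 ratios over B220+ cells were 4.80 ± 0.17 (27.9-fold) and 5.36 ± 0.16 (41.1-fold), with the bone marrow the highest of the 3 arrays. Derl3, the derlin, had signals of 15.8, 2375 and 2796 in the same order of arrays. Its log2 ratios were 7.23 ± 0.15 (150-fold) and 7.47 ± 0.15 (177-fold), and 8 of 11618 genes had a higher ratio in the spleen comparison. Both probes were dim in B220+ cells. With normexp on the local background the spleen ratios were 1.84 for Sel1l and 4.45 for Derl3, both still above 2-fold.

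**Figure D1:**
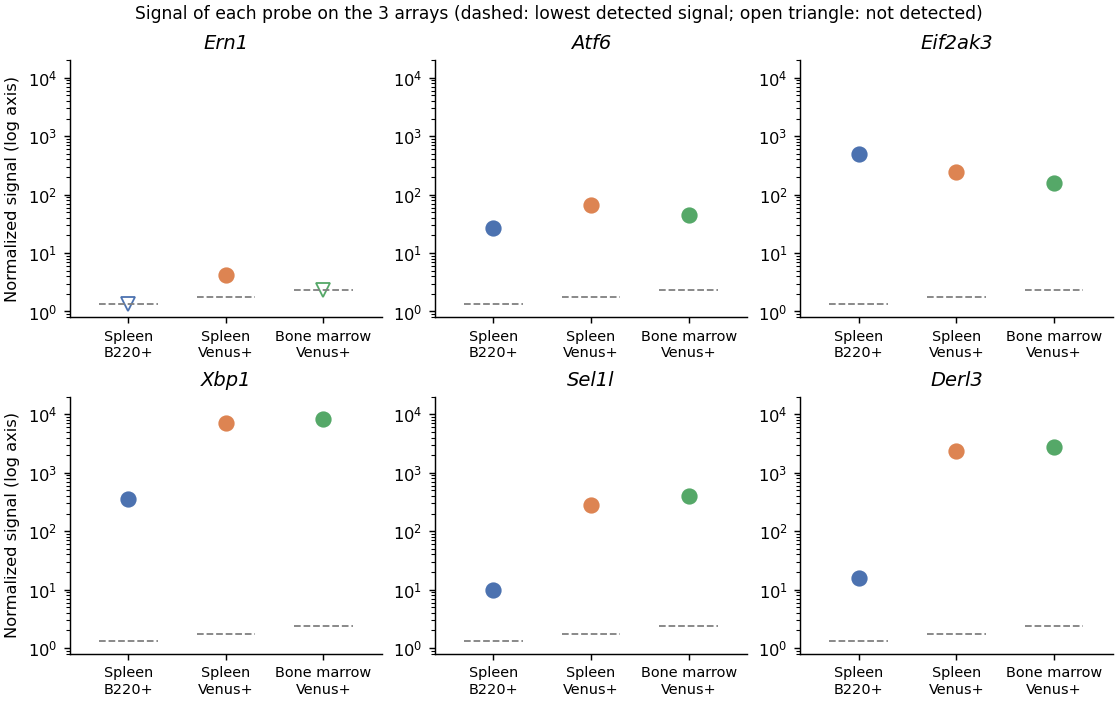
Normalized signal (log axis) of the 6 probes on the 3 arrays, 1 point per array; the dashed line is the lowest detected signal of that array and an open triangle a probe that was not detected, drawn at or near that line. Xbp1, Sel1l and Derl3 are high in both Venus+ populations, Eif2ak3 is highest in B220+ cells at 494, and Ern1 passes the line in spleen Venus+ cells at 4.15.

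Of the 5 genes detected on both spleen arrays, 4 had a signal at least 2-fold higher in Venus+ than in B220+ cells (Xbp1, Atf6, Sel1l and Derl3) and 1 was lower (Eif2ak3). Among all 11618 genes, 1828 (15.7%) were at least 2-fold higher and 1915 (16.5%) lower. For bone marrow Venus+ against B220+ cells, 3 of 5 were higher (Xbp1, Sel1l and Derl3), 1 was lower (Eif2ak3) and 1 was between (Atf6), beside 2424 (22.4%) higher and 3320 (30.7%) lower among 10813 genes. Over all genes the median log2 ratio was -0.02 in the spleen and -0.24 in the bone marrow comparison. Relative to that median, the bone marrow values were 4.81 for Xbp1, 0.95 for Atf6, -1.38 for Eif2ak3, 5.61 for Sel1l and 7.71 for Derl3. Both comparisons share the B220+ array. The balance of all genes moved with the settings: a detection limit from spots without a probe gave 2865 higher and 1077 lower in the spleen, and scaling to common probes gave 3056 higher and 2609 lower in the bone marrow.

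Set against each other within a comparison, the sensor genes Atf6 and Eif2ak3 did not move alike. The log2 ratio of Atf6 exceeded that of Eif2ak3 by 2.35 ± 0.20 in the spleen and by 2.34 ± 0.19 in the bone marrow comparison. The difference kept its sign in the 9 alternative settings, from 1.40 to 2.41 in the spleen and from 1.53 to 2.37 in the bone marrow. Several of these settings could not change it. Scaling to common probes cancels in the difference, and the dim-probe filters and the mean over probes left both signals as they were. Xbp1 exceeded Atf6 by 3.03 ± 0.20 and 3.86 ± 0.19, and Eif2ak3 by 5.38 ± 0.19 and 6.19 ± 0.19. Ern1, the gene of the sensor upstream of Xbp1, had a lower bound of 3.09-fold near the detection limit. That bound cannot show whether its ratio differed from the 20.2-fold of Xbp1. In the spleen the order was Derl3, Sel1l, Xbp1, Atf6 and Eif2ak3. Sel1l and Xbp1 were the closest neighbours, 0.46 ± 0.22 apart in the spleen and 0.79 ± 0.21 in the bone marrow, and with normexp on the local background their order turned, 4.30 for Xbp1 against 1.84 for Sel1l in the spleen.

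**Figure D2:**
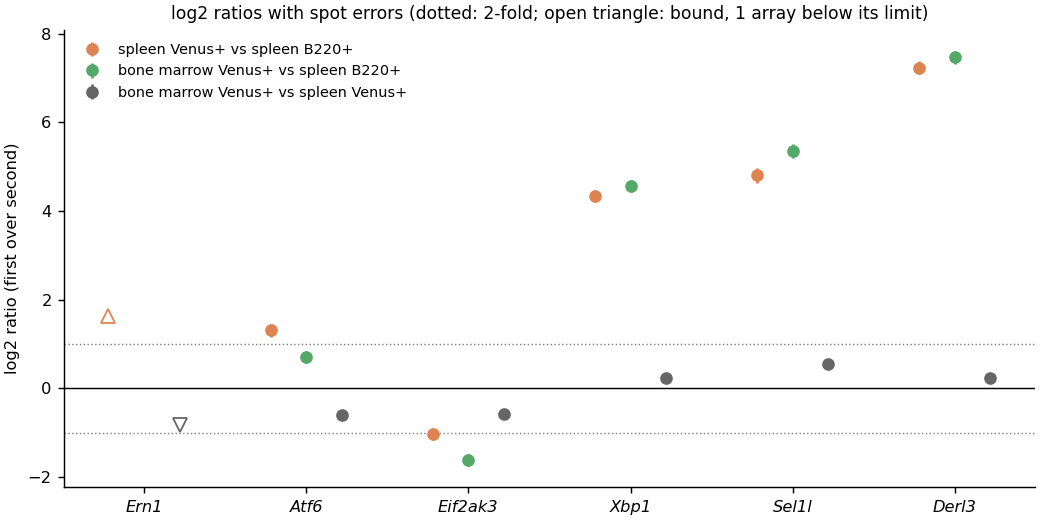
The log2 ratios of the 6 genes in the 3 comparisons, with spot errors as vertical lines (hidden by the symbol where small); dotted lines mark 2-fold and open triangles are bounds. Derl3, Sel1l and Xbp1 lie above 4 against B220+ cells, and Eif2ak3 lies below -1. Between bone marrow and spleen Venus+ cells the 5 genes with ratios lie within 2-fold, and Ern1 has a bound.

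Between the 2 Venus+ populations the differences were small. Bone marrow over spleen, the log2 ratios were 0.23 ± 0.11 for Xbp1, 0.56 ± 0.11 for Sel1l and 0.24 ± 0.11 for Derl3, and -0.60 ± 0.12 for Atf6 and -0.59 ± 0.11 for Eif2ak3. None of the 5 reached 2-fold, where 492 of 11352 genes (4.33%) were higher and 1720 (15.2%) lower in the bone marrow. The median of all genes was -0.17, and relative to it Xbp1 stood at 0.40, Sel1l at 0.73, Derl3 at 0.41, Atf6 at -0.42 and Eif2ak3 at -0.41. Atf6 and Eif2ak3 differed by -0.01 ± 0.16, within the spot error. With normexp on the local background Xbp1 was at -0.32, so its direction was not stable, whereas Sel1l and Derl3 stayed above 0 and Atf6 and Eif2ak3 below 0 in the 9 alternatives. Of these alternatives, the dim-probe filters and the mean over probes could not move the ratios of these genes. Scaling to common probes moved all genes to 1250 higher and 916 lower, with a median of 0.16.

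Of 9 genes of IRE1 signalling and Xbp1 splicing on the array, 2 were at least 2-fold higher in spleen Venus+ cells, 1 was lower and 6 were between, beside 15.7% higher and 16.5% lower over all genes, with a median log2 ratio of -0.33. The counts are near that background. Ern2, the IRE1 paralogue known from mucosal epithelium, was among the higher ones at dim signals of 9.09 against 3.58 in B220+ cells (1.34 ± 0.33), and Trpt1, a tRNA 2′-phosphotransferase, stood at 1.79 ± 0.14. Rtcb, the ligase that joins the cut Xbp1 mRNA, was at -0.65 ± 0.14 in the spleen and -1.20 ± 0.13 in the bone marrow. Zbtb8os (archease), which helps that ligase, was at 0.23 in the spleen, and Ptpn1, a phosphatase of the ER membrane, was at 0.50 in the spleen but at -1.31 ± 0.13 in the bone marrow, 2.48-fold lower than in B220+ cells. Mapk8, the JNK1 kinase downstream of IRE1, was 3.34-fold lower in the spleen (-1.74 ± 0.19), and Tmbim6, which restrains IRE1, was at -0.74. In the bone marrow comparison 2 of the 9 were higher and 6 lower, beside 22.4% and 30.7% over all genes (median -1.13, or -0.88 relative to all genes), and the count of lower genes ranged from 0 to 6 over the alternatives.

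Genes that XBP1 is known to activate were high. Of 22 on the array, 20 were detected on both spleen arrays, 16 of them at least 2-fold higher in Venus+ cells, 0 lower and 4 between, beside 15.7% higher and 16.5% lower over all genes, with a median of 1.88. The top 3 were Fkbp11, an ER prolyl isomerase (4.98 ± 0.15), Edem2, which takes part in mannose trimming for ERAD (3.66 ± 0.14), and Dnajc3, the co-chaperone P58IPK (3.44 ± 0.14). The lowest were Ssr1 at 0.39, Srp19 at 0.43 and Ssr3 at 0.74, parts of the translocon-associated complex and of the signal recognition particle. Wfs1, an ER membrane protein, was detected in spleen Venus+ and not in B220+ cells, at least 6.83-fold higher. In the bone marrow the median was 1.99, with 15 of 20 genes higher and 0 lower, beside 22.4% and 30.7% over all genes. The spleen median fell to 0.92 with normexp on the local background.

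Of 10 ATF6 processing genes and relatives measured in the spleen, 3 were higher, 2 lower and 5 between, beside 15.7% higher and 16.5% lower over all genes, with a median of 0.28 that ranged from -0.35 to 0.37 over the alternatives. In the bone marrow 3 of 9 were higher and 4 lower, beside 22.4% and 30.7% over all genes, and the median was -0.38. The higher ones in the spleen were Creb3l2, an ATF6-like factor of secretory cells (3.38 ± 0.46, signals 23.2 and 2.22), Atf6b, the ATF6 paralogue (2.02 ± 0.15), and Creb3 (1.07 ± 0.14). Mbtps1, the site-1 protease, stood at -0.83 ± 0.14 and Mbtps2, the site-2 protease, at 0.67 ± 0.63, an error nearly as large as the value. Nfya and Nfyb, subunits of the factor that binds CCAAT boxes, were lower, at -1.02 and -1.32. Of 15 ATF6 target genes, 13 were higher in the spleen, 0 lower and 2 between, beside 15.7% higher and 16.5% lower over all genes, with a median of 2.02. The counts in the bone marrow were the same, beside 22.4% and 30.7% over all genes, with a median of 2.25. Creld2 (4.01 ± 0.14), Sdf2l1 (3.78) and Pdia4 (3.56), proteins of ER folding, had the highest ratios, followed by Dnajc3, which the list shares with the XBP1 targets. Which of XBP1 and ATF6 acted on a gene of these lists was not measured. The chaperones Hspa5 (BiP) and Hsp90b1 (GRP94) were at 2.02 and 2.33. The 3 lowest were Canx, the lectin chaperone calnexin, at 0.34, Syvn1, the HRD1 ligase that SEL1L binds, at 0.58, and Hyou1 at 1.47. Syvn1 thus differed by less than 2-fold where its partner Sel1l was 27.9-fold higher, and its signals were 152 in B220+ cells, against 227 in the Venus+ cells of the spleen and 114 in those of the marrow.

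Of 12 genes of PERK signalling measured in the spleen, 2 were higher, 3 lower and 7 between, beside 15.7% higher and 16.5% lower over all genes, with a median of 0.06 that ranged from -0.02 to 0.47 over the alternatives. The count of higher genes was thus near that background. Against B220+ cells, 3 of 12 in the bone marrow were higher and 4 lower, beside 22.4% and 30.7% over all genes (median -0.33). The higher ones in the spleen were Dnajc3, which inhibits PERK, and Ppp1r15a (GADD34), the phosphatase subunit that reverses eIF2alpha phosphorylation. Ppp1r15a was 9.41-fold higher, with signals of 20.3 in B220+ cells, against 191 in the Venus+ cells of the spleen and 88.1 in those of the marrow. Both genes stand in other lists too, Dnajc3 among the XBP1 and ATF6 targets and Ppp1r15a among the ATF4 and CHOP targets. Ppp1r15b, the constitutive counterpart, was lower at -1.49, and so were Eif2ak4 (GCN2), another eIF2alpha kinase, at -1.43 ± 0.14 and Eif2b1, a subunit of the exchange factor eIF2B, at -1.04. Eif2b3, another subunit of it, was at 0.77. Eif2ak2 (PKR) was at -0.08 ± 0.24. Eif2s1, which encodes eIF2alpha itself, had a dim probe, with signals of 9.68 in B220+ and 0.893 in spleen Venus+ cells. It was detected in B220+ cells alone, at least 5.57-fold lower in spleen Venus+ cells. Of 12968 genes detected on either spleen array, 547 were likewise detected in B220+ cells alone.

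Downstream of PERK, 20 genes of the ATF4 and CHOP programme were measured on both spleen arrays, of which 7 were higher, 0 lower and 13 between, beside 15.7% higher and 16.5% lower over all genes, with a median of 0.73, or 0.89 with the 2 genes detected in Venus+ cells alone placed at their bounds. Asns, asparagine synthetase, was at 5.97 ± 0.37 (signals 176 and 2.81), the factor Atf5 at 4.67 ± 0.32 and Slc3a2, the heavy chain of amino acid transporters, at 4.17 ± 0.14. Chac1, which degrades glutathione, was at least 91.7-fold higher. The factors that name the programme differed little: Atf4 was at 0.17 ± 0.14 and Ddit3 (CHOP) at -0.45 ± 0.14, the lowest of the list with Gars (-0.34), glycyl-tRNA synthetase, and Psat1 (-0.33), an enzyme of serine synthesis. For the bone marrow 8 of 20 were higher and 1, Ero1a, was lower, beside 22.4% and 30.7% over all genes, and the median was 0.69.

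**Figure D3:**
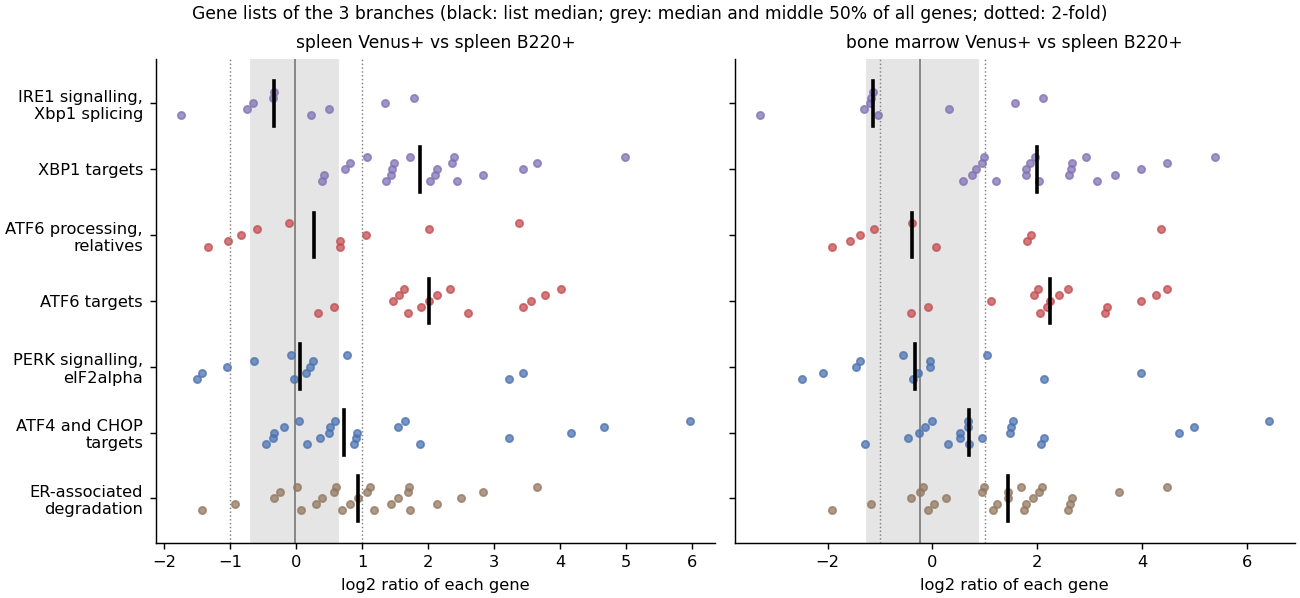
The log2 ratio of each gene (1 point each) in the lists of the 3 branches and of ERAD, against B220+ cells, for spleen (left) and bone marrow (right) Venus+ cells; black bars are list medians, the grey line and band the median and middle 50% of all genes, dotted lines 2-fold. In the spleen the target lists of XBP1 and ATF6 have medians of 1.88 and 2.02, while the signalling lists of IRE1, ATF6 and PERK lie at -0.33, 0.28 and 0.06.

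Beyond Sel1l and Derl3, 25 genes of ERAD were measured in the spleen, 12 higher, 1 lower and 12 between, beside 15.7% higher and 16.5% lower over all genes, with a median of 0.93. Edem2 led, followed by the ubiquitin-conjugating enzyme Ube2j1 at 2.83 and Txndc11 at 2.51, and Rnf139, a membrane ubiquitin ligase, was the lower one at -1.42. Herpud2 and Edem3 were at -0.93 and -0.33. In the bone marrow the median was 1.44, with 15 of 25 genes higher and 2 lower, beside 22.4% and 30.7% over all genes. This list shares members with the lists of XBP1 and ATF6 targets. Of 5 measured substrates of the decay that IRE1 carries out on other mRNAs, 1 was higher in the spleen (Sparc, 1.27 ± 0.41), 0 lower and 4 between, beside 15.7% higher and 16.5% lower over all genes, a count near that background. Their median was -0.18 in the spleen and 0.81 in the bone marrow (1.05 above all genes), where again 1 was higher and 0 lower, beside 22.4% and 30.7% over all genes. Bloc1s1, the usual marker substrate, was at -0.37 and -0.21. Scara3, at -0.18 ± 0.37 and 0.81 ± 0.31, was the median gene in both comparisons. Its signals were dim, 4.92 in B220+ cells against 4.35 in spleen and 8.59 in marrow Venus+ cells, so these medians rest on 1 dim probe.

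The ERSE letters seen before Derl3 were followed across the array. Windows of 35 genes held an ERSE match, 20 of these genes were on the array, and 18 were detected on both spleen arrays. Of the 18, 9 were higher by 2-fold or more in Venus+ cells, 1 was lower and 8 were between, with a median of 0.83. Among the 9371 measured genes with a RefSeq window, the median was -0.03, and 15.4% were higher and 16.4% lower. In the bone marrow comparison 9 of 17 were higher and 3 lower, beside 22% and 31% of 8729 genes. Of the 18 genes, 10 were among the 6 genes or the lists above, and 8 of these were higher. Of the 8 in no list, 1 was higher (Acnat2, 1.08) and 1 lower (Pan2, -1.12). The element was defined on promoters of ER chaperones, so these genes and the lists are not independent. Derl3 was the highest of the 18, followed by Creld2, Dnajc3, Hsp90b1 and Hspa5. In the spleen comparison, of 90 measured genes with a UPRE match 18 were higher and 12 lower. Of 238 with an amino acid response element, 49 were higher and 25 lower there. The bone marrow counts were 27 and 16 of 83 for UPRE, and 57 and 55 of 226 for the amino acid response element. Of 6 measured genes with ERSE-II, 4 were higher and 1 lower in the spleen, and 3 and 1 in the bone marrow. Herpud1, of the ATF6 target list, is among these 6.

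**Figure D4:**
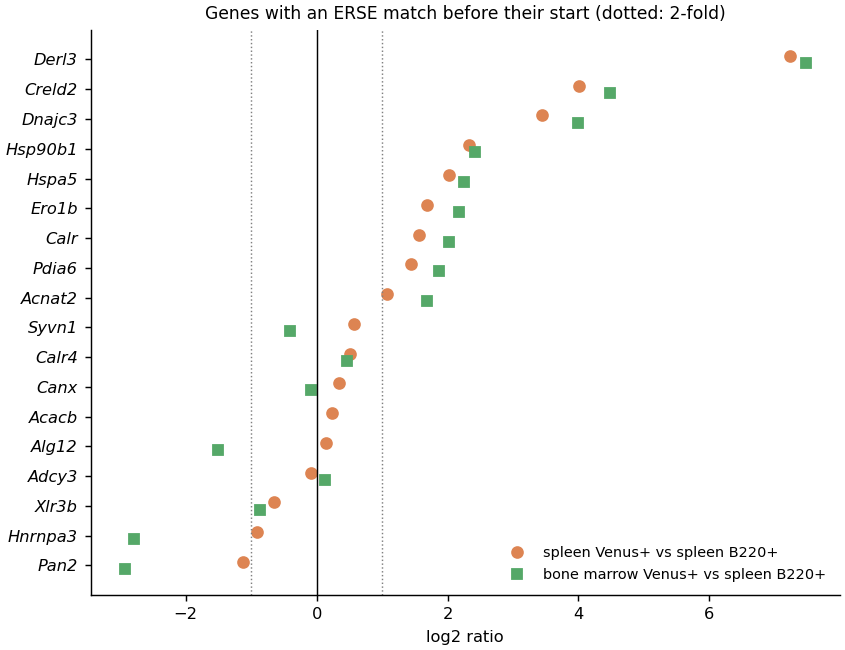
The log2 ratio against B220+ cells of each gene with an ERSE match before its start, for spleen (circles) and bone marrow (squares) Venus+ cells; dotted lines mark 2-fold. Derl3 is at the top at 7.23 and 7.47, and the lower part of the plot holds genes between 2-fold lower and 2-fold higher in the spleen apart from Pan2.

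Genes with the pattern most like each of the 5 genes detected on all 3 arrays, so not Ern1, were found by the distance between their pairs of log2 ratios (spleen and bone marrow Venus+ over B220+) among 10769 genes detected on all 3 arrays. Derl3 had no gene within 0.5. Its nearest were Pycr1 at 0.52, Rgcc at 0.56 and Ccnk at 0.63. Xbp1 had 15 genes within 0.5, with Maged2 (0.15), Tmem270 (0.19) and the ATF4 target Slc3a2 (0.22) nearest. Sel1l had 17, with Tle2 (0.03), Ryk (0.09) and the XBP1 target Fkbp11 (0.18) nearest. The ratios of Xbp1 and Sel1l over B220+ cells carry spot errors of 0.13 to 0.17, so the order among such near genes is not resolved. In B220+ cells these neighbours had signals from 2.75 (Maged2) to 162 (Slc3a2) for Xbp1, and from 2.89 (Ryk) to 13.6 (Fkbp11) for Sel1l. Atf6 and Eif2ak3 had patterns shared by many genes, 294 and 1022. The nearest to Atf6 were Bpifa1, Airn and Gpr6, and the nearest to Eif2ak3 were Gnpnat1, Snapin and Prmt9. Both ratios share the B220+ array.

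**Figure D5:**
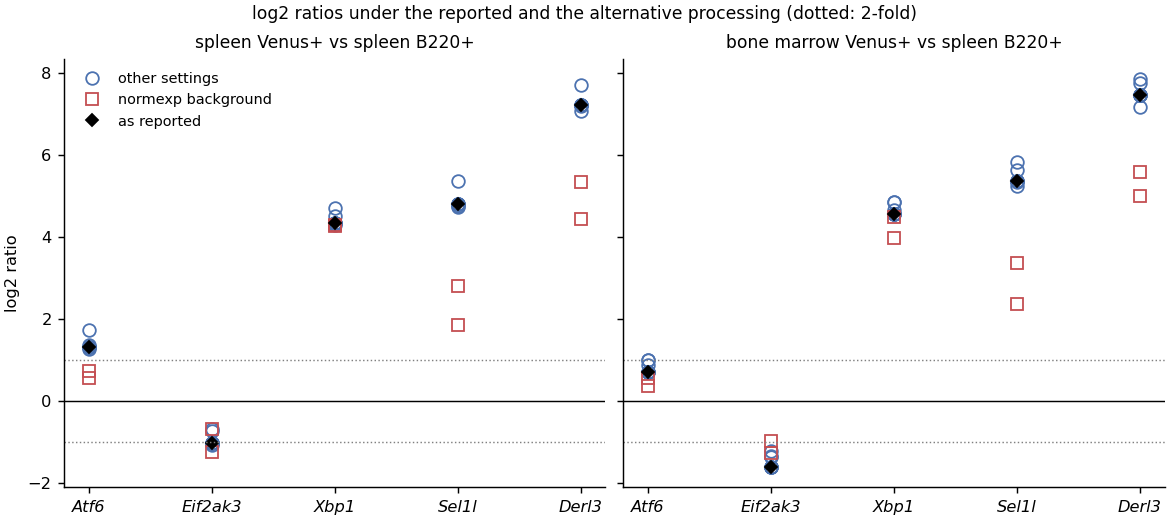
The log2 ratios of the 5 genes detected on both arrays, as reported (black diamonds) and under the alternative settings (blue circles, and red squares for the normexp backgrounds); dotted lines mark 2-fold. Xbp1, Sel1l and Derl3 lie above 2-fold at every setting shown, while Atf6 and Eif2ak3 lie near the lines.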

How the data were processed

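The 3 deposited scanner files hold, per the file headers, spot median intensities of the Cy5 channel. The authors, per the design text of the series, subtracted the blank level and set the median of detected signals to 25, and they deposited these processed intensity values in a second table. The recipe was rebuilt from the scanner files: the blank level was the mean of the middle 90% of 2736 blank spots, and the detection limit that mean plus 2 SD. Detection calls differed from the authors' table for 0 probes. Flagged spots (0, 1 and 2) were left out. The blank SD was 0.670, 0.868 and 1.18 in normalized signal, and the positive controls (24 copies of each) spread by 7.54%, 5.73% and 5.12%. Both enter the spot error. The lowest detected signals were 1.34, 1.74 and 2.35. Precision is limited by there being 3 arrays.

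Probes were named through the platform annotation and RefSeq synonyms (GRCm38.p6): 16631 of 23473 had 1 symbol, 0 several, and 6842 are unnamed here. Of the symbols, 12622 were current, 3947 were updated, 59 had a shared synonym and 3 were not found. The brightest probe stood for a gene. Called genes were detected on both arrays and at least 2-fold apart. A gene detected on 1 array got a lower bound, its signal divided by the lowest detected signal of the other array, or by its own signal there if that was higher. No test was made. Named genes were the 6, in each list the 3 highest and 3 lowest in the spleen comparison with the largest bounds, list genes that show which kinases, proteases or ligases were measured, and the 3 genes of most similar ratios. A few more (Zbtb8os, Hspa5, Hsp90b1, Atf4, Ero1a, Bloc1s1) and the genes with element matches were named after their values were seen. The genes and lists were chosen with earlier results of these data known. Motifs were searched as letters on both strands. Processing used Python 3.11.15, pandas 2.3.3, numpy 2.4.6, R 4.3.3 and limma 3.58.1, and was tested on simulated data. Alternatives were normexp (offset 50), another limit, scaling, quantile normalization, the authors' table, dim-probe filters and the mean over probes.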

Additional observations from a re-analysis of the deposited data

How the results depend on the processing

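No paired analysis was possible because each population has 1 array, and leaving out a replicate was not possible for the same reason. Of 151 ratios or bounds of the 6 genes over 9 alternatives, 139 stayed on the same side of 2-fold, 12 changed side and 0 called values reversed. A change of sign within 2-fold, as for Xbp1 between the Venus+ populations, was counted among the 139. Part of the 139 was fixed in advance. With 1 probe per gene the mean over probes returned the reported value, and the dim-probe filters left ratios between detected signals unchanged. The authors' table holds the same recipe. Normexp on the blank level was added after seeing the data, because the local background rose with the spot (r of 0.954 to 0.967 over spots). Causes of the changes were not tested.

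With normexp on the local background, Atf6 was 0.56 in the spleen, the median of XBP1 targets was 0.92 in the spleen and that of ERAD was 0.59 in the bone marrow comparison. All genes then counted 363 higher and 423 lower (spleen), 536 and 602 (bone marrow over B220+), and 183 and 208 (bone marrow over spleen Venus+). With normexp on the blank level, Ern1 was 0.067, Atf6 0.72 and Eif2ak3 -0.68 in the spleen, Eif2ak3 was -0.98 in the bone marrow, and the same counts were 545 and 522, 1007 and 1096, and 162 and 209. With a limit from spots without a probe, Eif2ak3 was -0.68 and the ERAD median 1.30 in the spleen, Atf6 was 1.01 in the bone marrow, Ern1 was -1.07 for bone marrow over spleen, and the spleen counted 2865 and 1077. Scaling to common probes gave 1.002 for Atf6 in the bone marrow and 1250 and 916 genes for bone marrow over spleen. Quantile normalization gave -0.74 for Eif2ak3 and 1.21 for ERAD in the spleen, 1.04 for ATF4 and CHOP targets in the bone marrow and -1.20 for Ern1 in bone marrow over spleen. The stricter filter on dim probes gave 0.63 for Ern1 in the spleen. Ratios of Xbp1 over B220+ ranged from 4.26 to 4.70 (spleen) and 3.99 to 4.86 (bone marrow), of Sel1l from 1.84 to 5.37 and 2.36 to 5.85, and of Derl3 from 4.45 to 7.72 and 5.01 to 7.88. The share of higher among called genes was 48.8% in the spleen comparison (72.7% with the other limit), 42.2% in the bone marrow comparison (53.9% with common scaling) and 22.2% between Venus+ populations (57.7% with common scaling). Signal over background limits what Ern1, Sel1l in B220+ cells and Mbtps2 can show.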
